A study of Oryza sativa with 12 samples.

Results

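Leaves of an F1 hybrid between the rice cultivars C bao and Jamaica were compared with leaves of the Jamaica parent. The comparison takes 4 of the 12 arrays of the study, namely both F1 leaf arrays and both Jamaica leaf arrays, chosen by the cultivar and tissue in their labels. All were Affymetrix rice arrays, on which a probe set is a group of short probes read together as 1 signal. Leaf samples came from plants aged 4 weeks whatever the genotype, whereas root samples were 7 days of age, and in any comparison with root the tissue cannot be told apart from the age. C bao, Jamaica and F1 were each hybridised on 2 arrays per tissue. The study addressed hybrid weakness, and its title ties the condition to stress responses.

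Hybrid weakness is the stunted growth of offspring from a cross between healthy parents. In plants it is often traced to parental alleles that act badly together in the hybrid, and in many crosses the affected leaves show defence or stress responses. Leaves are sampled because they hold the photosynthetic tissue and, near their base, dividing and expanding cells. The F1 plants carry 1 genome copy from each parent, and C bao leaf values are therefore given beside those of F1 and Jamaica for most genes described. The labels do not say whether paired arrays came from separate plants, which parent was the mother, or how plants were grown. The p-values rest on the spread between paired arrays, shared over all groups, and that spread may be technical.

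Signals below are deposited intensities scaled alike on all arrays, listed as replicate 1 and then replicate 2. Differences are on the log2(signal + 16) scale, which understates the change of weak genes, with the standard error (SE) and Benjamini-Hochberg adjusted p of a limma model over the 12 arrays and 42974 probe sets. A probe set was called when that p was under 0.05. The leaf labels fitted their markers. The photosynthesis list had mean log2 levels of 12.27 to 13.12 on the 6 leaf arrays and 8.91 to 10.02 on the root arrays. The root transporters of silicon, manganese and boron stood at 7.86 to 8.68 in leaf and 11.81 to 13.03 in root. In bulk leaf, fewer cells of a type cannot be told apart from less RNA per cell.

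The 2 hybrid arrays differed more from each other than did the arrays of any other group. Their correlation was 0.924, with 22.6% of probe sets more than 2-fold apart, against 0.944 and 18.8% for the Jamaica leaf pair and 0.966 and 12.5% for the C bao leaf pair. Replicate 1 correlated at 0.959 and 0.952 with the C bao leaf arrays and at 0.869 and 0.902 with the Jamaica leaf arrays. Replicate 2 correlated at 0.912 and 0.912 with C bao and at 0.913 and 0.93 with Jamaica. Replicate 1 therefore lay nearer to C bao, and replicate 2 at about the same distance from both parents. The 3' to 5' signal ratio of the Gapdh control was 6.44 and 12.4 on the F1 arrays and 4.94 to 6.65 on the other leaf arrays. The actin ratio was 9.31 and 5.99 on the F1 arrays, 4.43 and 4.48 on the Jamaica arrays and 7.61 and 7.62 on the C bao arrays. The part of these ratios in the results was not tested.

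**Figure D1:**
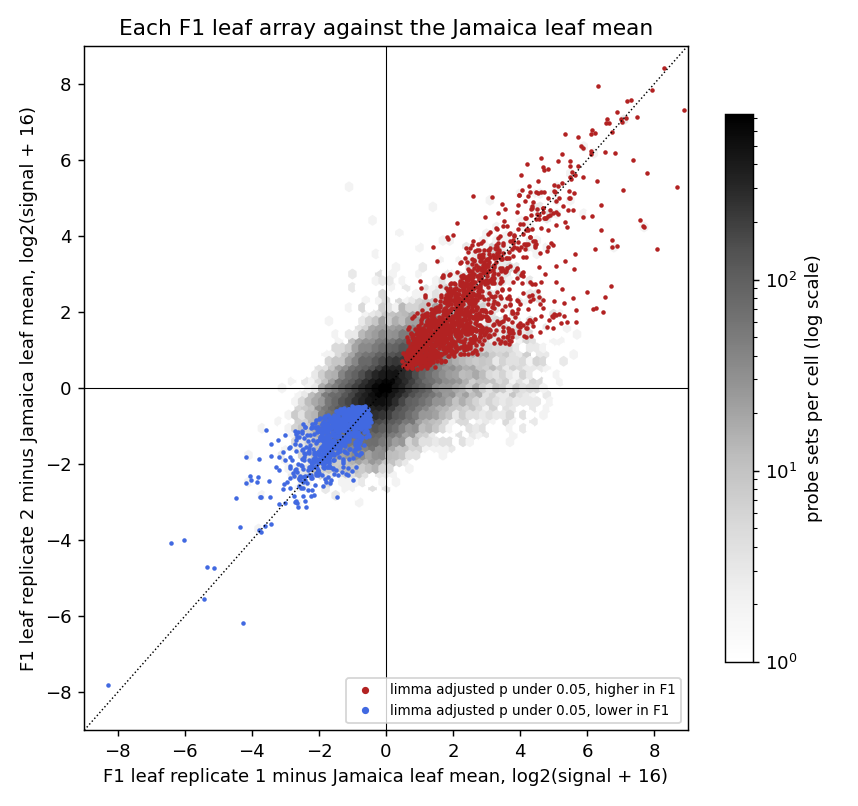
Difference of each F1 leaf array from the mean of both Jamaica leaf arrays, in log2(signal + 16), with replicate 1 on the horizontal and replicate 2 on the vertical axis. Grey cells count all 42974 tested probe sets, and red and blue points are the 1436 higher and 806 lower calls. The calls lie where both arrays moved the same way, and a grey arm to the right holds probe sets high on replicate 1 alone.

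Between F1 and Jamaica leaves, 2242 probe sets were called (5.22% of those tested), of which 1436 were higher in F1 (3.34%) and 806 lower (1.88%). For all of these calls both F1 arrays lay on 1 side of both Jamaica arrays. Separation of that kind was common in itself, since both F1 arrays lay above both Jamaica arrays for 8836 probe sets (20.6%) and below them for 10468 (24.4%). Both F1 arrays were at least 2-fold above both Jamaica arrays for 1418 probe sets (3.3%) and at least 2-fold below for 857 (1.99%). Called as well were 989 of the first (2.3%) and 334 of the second (0.777%). A single array gave far more. Whatever the other F1 array read, replicate 1 was at least 2-fold above both Jamaica arrays for 4452 probe sets (10.4%). Replicate 2 was so for 2595 (6.04%). The corresponding falls numbered 3208 (7.46%) and 2430 (5.65%).

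The number of calls rests on how the spread is estimated. The F1 and Jamaica leaf pairs were the least alike of the 6 pairs, and the model shares 1 spread per probe set over all groups. The standard errors and p-values given may therefore be too small for this comparison. Fitted to the 6 leaf arrays alone the comparison gave 388 calls, and to the 4 compared arrays alone 55. It gave 6038 without F1 leaf replicate 2, 954 without Jamaica leaf replicate 1, and 1363 to 1486 without any single root array. Of the 28 informatively named genes with the widest gap, described next, 18 kept the call with 6 leaf arrays and 8 with 4.

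Among genes with an informative name the widest gap was that of BURP17 (LOC4349896), a member of the plant-specific BURP-domain family. Its signal was 10575 and 3478 on the F1 arrays, 10.8 and 2.2 on the Jamaica arrays and 14378 and 13724 on the C bao arrays. It was near the floor of the array in Jamaica and among strong signals in both other genotypes, and it rose by 8.11 (SE 0.505, adjusted p 8.7e-06). MADS56 (LOC4349237), a MADS-box transcription factor of flowering time control, read 2500 and 3294 in F1, 16 and 5.9 in Jamaica and 4091 and 4686 in C bao. Its rise was 6.77 (SE 0.265, adjusted p 3.18e-07). OsC3H2, a zinc finger protein, stood at 2245 and 1395 in F1 against 57.1 and 68.3 in Jamaica, with 4201 and 2875 in C bao, a rise of 4.51 (SE 0.269, adjusted p 5.98e-06). On these 3 probe sets the hybrid arrays lay far above Jamaica and below both C bao arrays. A second OsC3H2 probe set read 4979 and 3845 in F1, 857 and 2383 in Jamaica and 4242 and 4005 in C bao, a smaller rise of 1.6 (adjusted p 0.03) to about the C bao level.

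Enzymes of 3 further kinds were ordered alike, with F1 between Jamaica and C bao. KSL7, a diterpene cyclase of phytoalexin synthesis, had signals of 346 and 1064 in F1, 5.7 and 7 in Jamaica and 1276 and 1925 in C bao (4.81, SE 0.618, adjusted p 0.00152). OsPP2C12, a protein phosphatase, had 4409 and 5015 in F1, 519 and 396 in Jamaica and 5227 and 5912 in C bao (3.33, SE 0.183, adjusted p 3.93e-06). Cht2, a chitinase, which is an enzyme that cuts fungal cell wall chitin, had 3054 and 2724 in F1, 71.3 and 67.8 in Jamaica and 6472 and 7489 in C bao (5.08, SE 0.235, adjusted p 1.15e-06). The Cht2 rise was seen on 1 of its 3 probe sets. A second Cht2 probe set read 1176 and 623 in F1, 2110 and 1334 in Jamaica and 21.6 and 41 in C bao, a difference of -0.96 (adjusted p 0.173), and another differed by 0.36 (adjusted p 0.476). Probe sets of 1 gene that order the genotypes in opposite ways do not measure the gene alike, and sequence differences under the probes were not tested. A second KSL7 probe set likewise differed by 0.99 without a call (adjusted p 0.228).

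Other rises stood above the level of C bao as well. MT1B, a metallothionein, which is a small metal-binding protein, read 5990 and 7369 in F1, 355 and 356 in Jamaica and 3197 and 1533 in C bao. It was 4.16 above Jamaica (SE 0.306, adjusted p 3.07e-05) and 1.58 above C bao (adjusted p 0.0369). LAC24, a laccase of the family that links lignin units, read 1517 and 3048 in F1, 31.4 and 54.9 in Jamaica and 382 and 180 in C bao. Its rise over Jamaica was 5.22 (SE 0.657, adjusted p 0.00132), while the difference of 2.95 from C bao was not called (adjusted p 0.0697). OsPP2C45, another phosphatase of the PP2C family, read 621 and 1292 in F1, 76.3 and 81.2 in Jamaica and 150 and 137 in C bao. It rose by 3.27 (SE 0.625, adjusted p 0.0152), with 2.52 over C bao uncalled (adjusted p 0.114), and a second probe set of the gene was 0.15 lower and uncalled (-0.15, adjusted p 0.608).

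The last of the 14 widest rises among informatively named genes were OsPRDA1, CH6, ASMT, AT15 and LAC4. ASMT, the methyltransferase of the last step of melatonin synthesis, read 335 and 278 in F1, 20.6 and 26.3 in Jamaica and 210 and 99.3 in C bao (3.03, SE 0.435, adjusted p 0.00307). OsPRDA1 rose by 3.89 and CH6 by 3.32, while a second probe set of each differed by -0.85 and 0.39 with no call. AT15 rose by 3.98 and LAC4, a second laccase, by 3.92, and both lost the call with 6 leaf arrays alone (adjusted p 0.145 and 0.123). All of the other 12 rises kept it.

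**Figure D2:**
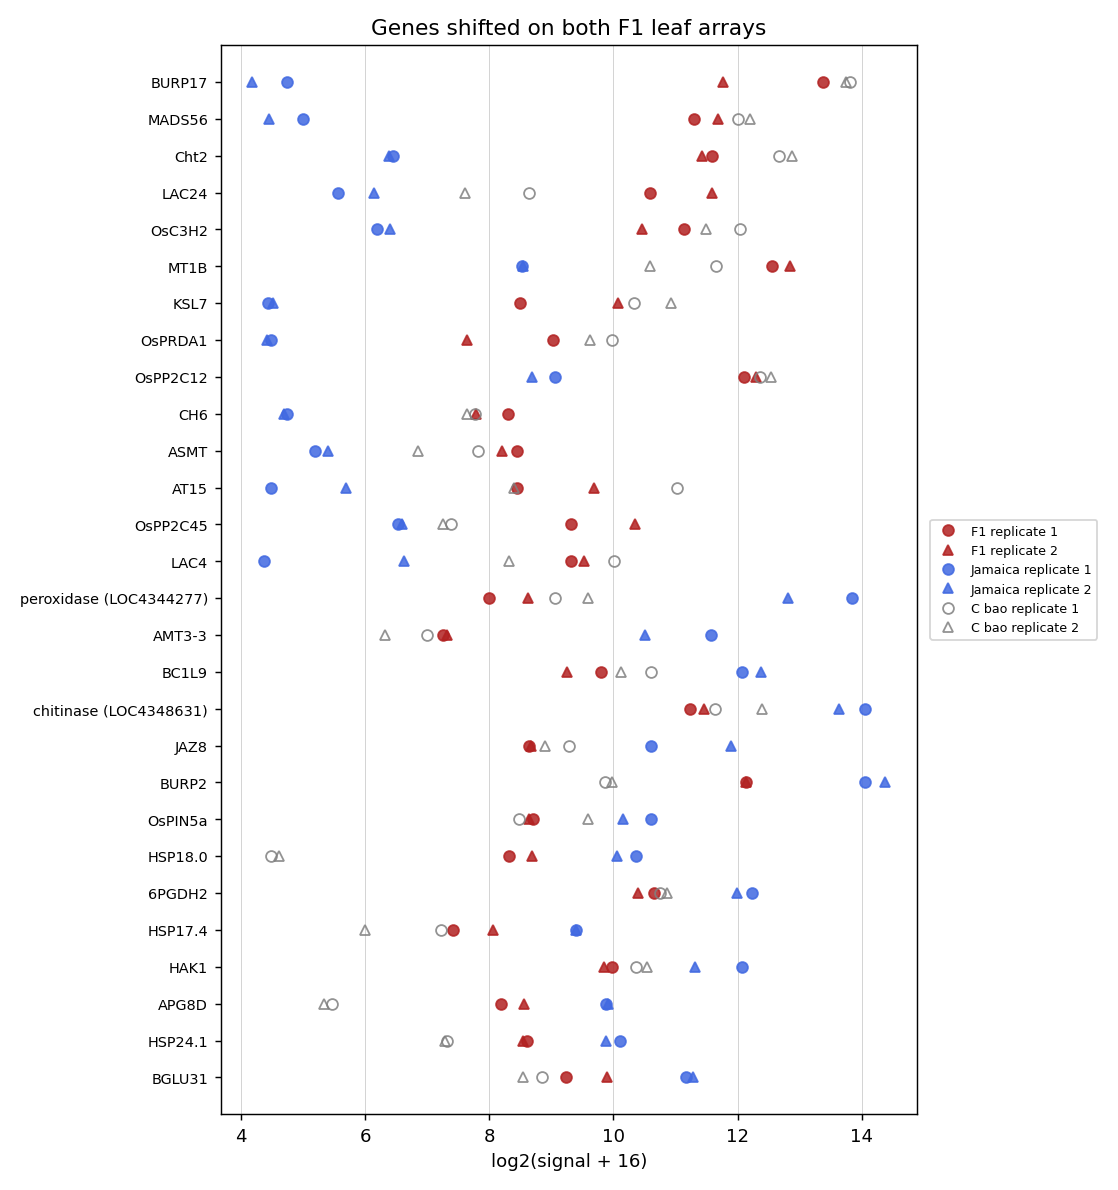
Level in log2(signal + 16) of the 14 rises and 14 falls with the widest gap between F1 and Jamaica leaves among informatively named genes, on each of the 6 leaf arrays (red F1, blue Jamaica, open grey C bao; circle for replicate 1, triangle for replicate 2). Both red symbols lie to 1 side of both blue symbols for every gene, from BURP17 at 8.11 above Jamaica to the peroxidase at 5.02 below.

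The falls were smaller. The deepest among genes with an informative name was in a class III peroxidase (LOC4344277), a secreted enzyme family of cell wall and defence oxidation, which read 240 and 377 in F1, 14761 and 7154 in Jamaica and 518 and 752 in C bao. It was 5.02 below Jamaica (difference -5.02, SE 0.369, adjusted p 3.07e-05). AMT3-3, an ammonium transporter, read 137 and 143 in F1, 3025 and 1447 in Jamaica and 112 and 63.6 in C bao (-3.76, SE 0.366, adjusted p 0.000247). BC1L9, of the COBRA-like family of cell wall proteins, read 880 and 596 in F1, 4279 and 5290 in Jamaica and 1542 and 1095 in C bao (-2.69, SE 0.254, adjusted p 0.000198). A second BC1L9 probe set fell by 1.99 and was also called (difference -1.99). For all 3 genes the hybrid stood close to C bao and far under Jamaica.

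A chitinase (LOC4348631) read 2404 and 2788 in F1, 16932 and 12628 in Jamaica and 3181 and 5381 in C bao (-2.49, SE 0.241, adjusted p 0.000242). JAZ8, a repressor of jasmonate responses that is itself induced by the hormone, read 385 and 390 in F1, 1549 and 3771 in Jamaica and 611 and 463 in C bao (-2.59, SE 0.366, adjusted p 0.00277). HAK1, a high-affinity potassium transporter, read 997 and 911 in F1, 4266 and 2521 in Jamaica and 1299 and 1478 in C bao (-1.77, SE 0.218, adjusted p 0.00116). Its second probe set fell by 1.68 (difference -1.68, adjusted p 0.00164). In all of them both F1 arrays lay below both arrays of each parent. 6PGDH2, an enzyme of the pentose phosphate pathway, fell by 1.58 (SE 0.183, adjusted p 0.000809), and a much weaker second probe set differed by 0.46 with no call.

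Several falls left the hybrid between its parents. BURP2 read 4486 and 4467 in F1, 16969 and 21270 in Jamaica and 913 and 991 in C bao. It was 2.08 below Jamaica (-2.08, SE 0.325, adjusted p 0.00495) and 2.22 above C bao (adjusted p 0.00752). A second, weaker BURP2 probe set differed by -1.02 from Jamaica with no call (adjusted p 0.0641). HSP18.0, a small heat shock protein, read 304 and 399 in F1, 1297 and 1044 in Jamaica and 6.4 and 8.4 in C bao (-1.7 against Jamaica, adjusted p 0.0135, and 3.96 against C bao, adjusted p 0.000118). Its 2 other probe sets, at -0.56 and -0.11, were not called. APG8D, an autophagy protein of the ATG8 family, read 277 and 361 in F1, 923 and 949 in Jamaica and 28.1 and 24.3 in C bao (-1.52, adjusted p 0.0231). HSP24.1 fell by 1.43 (adjusted p 0.00307) and stood 1.27 above C bao (adjusted p 0.0144). The remaining falls among the 14 were OsPIN5a, an auxin transporter (-1.71), HSP17.4 (-1.65) and BGLU31, a beta-glucosidase (-1.65). With 6 leaf arrays alone JAZ8, OsPIN5a, HSP18.0, HSP17.4, HAK1, APG8D, HSP24.1 and BGLU31 lost the call, at adjusted p from 0.0571 to 0.213. HSP17.4 had an adjusted p of 0.0494 over the 12 arrays.

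Some genes known here only by identifier moved as far as the named ones. LOC4352472 read 9622 and 10623 in F1, 21.7 and 9.3 in Jamaica and 11200 and 11138 in C bao (8.36, SE 0.323, adjusted p 3.15e-07), and a second probe set rose by 6.81. LOC4337003 rose by 7.05 from 4.8 and 2.2 in Jamaica to 2511 and 2601 in F1. LOC4346790 rose by 7.38, although a second probe set, at 0.34, was not called. Among falls, LOC4327401 read 68.1 and 5.9 in F1 against 1672 and 1502 in Jamaica (-5.22), LOC4328841 read 243 and 1044 against 18149 and 15772 (-5.02; its other probe sets -5.24, called, and -1.14, uncalled), and LOC4333923 read 484 and 470 against 4766 and 9314 (-3.76). All 6 kept the call with 6 leaf arrays alone.

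Levels outside those of both parents were counted next. Of the tested probe sets 2643 (6.15%) had both F1 signals above every parental leaf signal and 3063 (7.13%) had both below. By at least 2-fold the numbers were 126 (0.293%) and 70 (0.163%). Of the calls against Jamaica, 355 rises (0.826% of probe sets tested) and 321 falls (0.747%) lay outside all 4. Against C bao leaves, 495 probe sets were called (1.15%), 382 higher in F1 (0.889%) and 113 lower (0.263%). The number was 4441 without F1 leaf replicate 1, 302 without F1 leaf replicate 2, and 224 and 200 without C bao leaf replicate 1 and 2. The comparisons with C bao and with Jamaica share the F1 arrays and are set side by side only.

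DREB1B, a transcription factor of the CBF family that switches on cold and drought genes, was called above both parents. It read 3176 and 4028 in F1, 431 and 825 in Jamaica and 333 and 291 in C bao. That was 2.55 above Jamaica (SE 0.35, adjusted p 0.00231) and 3.46 above C bao (adjusted p 0.000659). CBF3, a close relative, read 1389 and 2009 in F1, 653 and 518 in Jamaica and 293 and 446 in C bao (1.5, SE 0.348, adjusted p 0.0357; 2.16 against C bao, adjusted p 0.0143). No array of either parent reached the F1 level of these genes. Of the 7 DREB-list genes tested these 2 were called higher, against 3.34% of all probe sets, and the other 5, from -1.93 for CBF1 to 1.65 for DREB1E, were not. The list median was 0.6, against -0.02 for all probe sets. CBF3 lost the call with 6 leaf arrays alone (adjusted p 0.122), and DREB1B kept it (adjusted p 0.0288).

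Calmodulin-like proteins, which bind calcium and pass on its signal, were next. CML15 read 5052 and 8272 in F1, 424 and 1012 in Jamaica and 1285 and 814 in C bao. It was 3.27 above Jamaica (SE 0.396, adjusted p 0.00104) and 2.64 above C bao (adjusted p 0.00875). CML31 read 5727 and 9275 in F1, 684 and 1324 in Jamaica and 3186 and 1655 in C bao (2.91, SE 0.39, adjusted p 0.00196). CML14 read 440 and 227 in F1, 64 and 44.2 in Jamaica and 182 and 130 in C bao (2.26, SE 0.319, adjusted p 0.00277). In all 3 the F1 arrays exceeded every parental leaf array, although only the CML15 difference from C bao was called. CML1 went the other way, with 1965 and 4274 in F1 and 10183 and 10113 in Jamaica (-1.8, SE 0.394, adjusted p 0.0278), near the 2416 and 4822 of C bao. CML14 and CML1 lost the call with 6 leaf arrays alone (adjusted p 0.111 and 0.163). Of 75 calcium signalling genes tested, 6 were higher and 3 lower, against 3.34% and 1.88% of all probe sets, and the median was 0.17. The higher calls became 14 without F1 leaf replicate 2, 4 without Jamaica leaf replicate 1 and 9 without Jamaica leaf replicate 2.

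Other regulators read above every parental leaf array. OsWRKY24, of the WRKY family of defence regulators, read 1922 and 2852 in F1, 392 and 535 in Jamaica and 878 and 929 in C bao (2.31, SE 0.342, adjusted p 0.00367). HSF1, a heat shock transcription factor, read 495 and 710 in F1, 189 and 214 in Jamaica and 110 and 91.5 in C bao (1.49, SE 0.282, adjusted p 0.0146). It was 2.39 above C bao (adjusted p 0.00197). A second HSF1 probe set, 1.07 above Jamaica, was not called (adjusted p 0.191). NAC067, a stress-related NAC factor, read 2696 and 3793 in F1, 1603 and 1493 in Jamaica and 1821 and 1713 in C bao (1.04, SE 0.181, adjusted p 0.00925). The differences from C bao, at 1.36 for OsWRKY24 and 0.85 for NAC067, were not called (adjusted p 0.12 and 0.0567). NAC067 and HSF1 lost the call against Jamaica with 6 leaf arrays alone (adjusted p 0.132 and 0.14). OsWRKY24 was the only call among 6 WRKY genes and NAC067 the only call among 8 NAC genes.

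The gene lists were read on 1 probe set for each gene, that with the highest mean over the 12 arrays. They held 864 genes in all, of which 89 were called (10.3%), 49 higher and 40 lower. Of all tested probe sets 5.22% were called, 3.34% higher and 1.88% lower. These shares are the background for each list count of the 12-array fit below. Fits with an array left out, other scalings or fewer arrays called other shares of all probe sets. Their list counts, above and below, are therefore not set against these shares. The 12-array shares cover weak probe sets and those without a gene, whereas the lists hold the strongest probe set of each gene. The 2 kinds of share are therefore not matched, and a list share above the background is not read as a result. With 6 leaf arrays alone 13 of these calls remained, AMT3-3, CML15, CML31, DREB1B, KSL7, LOX5, MADS56, MT1B, NSHB2, OsWRKY24, the chitinase and the peroxidase among them. The lists gave 264 calls without F1 leaf replicate 2, 89 without F1 leaf replicate 1, 32 without Jamaica leaf replicate 1 and 122 without Jamaica leaf replicate 2. Every other list call below was lost in the fit to 6 leaf arrays. That fit has fewer arrays to estimate the spread from, and the F1 and Jamaica leaf pairs were the least alike of all pairs. The part of each in the loss was not tested.

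Of 39 jasmonate genes 3 were called higher and 4 lower, against 3.34% and 1.88% of all probe sets, and the median was 0.02. LOX5, a lipoxygenase, read 2685 and 3034 in F1, 746 and 1078 in Jamaica and 2318 and 2359 in C bao (1.65, SE 0.198, adjusted p 0.000968). OPR5, of the oxophytodienoate reductase family, was 1.64 higher (adjusted p 0.0498). JAZ10 read 6288 and 7408 in F1, 2243 and 3815 in Jamaica and 1432 and 1345 in C bao, 1.22 above Jamaica (adjusted p 0.0166) and 2.28 above C bao (adjusted p 0.000771). JAZ10 was thus above all 4 parental arrays while JAZ8, described above, was below all 4. A second JAZ10 probe set was 0.89 higher and called (adjusted p 0.0466), and a second OPR5 set, 1.14 higher, was not (adjusted p 0.0539).

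The defence-related lists gave calls in both directions, against a background of 5.22% called. Of 14 chitinase and glucanase genes 0 rose and 2 fell, the chitinase above and Cht6 (-1.37, adjusted p 0.0308), with a list median of 0.51. Cht2 and CH6 entered this list by their strongest probe sets, which were not called. Of 16 diterpenoid phytoalexin genes KSL7 alone was called, and the median was -0.09. Of 24 immune receptor and salicylate genes, 3 were higher and 2 lower, with 12 higher without F1 leaf replicate 2 and 1 higher without Jamaica leaf replicate 1. CEBIP, the chitin receptor, read 652 and 597 in F1, 204 and 148 in Jamaica and 614 and 816 in C bao (1.75, adjusted p 0.00257). NH1, the rice counterpart of the salicylate regulator NPR1, read 1394 and 1299 in F1, 3248 and 2148 in Jamaica and 2192 and 1981 in C bao (-0.96, adjusted p 0.0292), below all 4 parental arrays. Its relative NH3 was 1.05 higher (adjusted p 0.0116), with 3 further NH3 probe sets at 0.29 to 0.91 uncalled. OsRac2, a small GTPase, read 338 and 47.8 in F1 and 6.3 and 7.1 in Jamaica (2.73, adjusted p 0.0331). Of 22 phenylpropanoid and lignin genes, 4CL3 (1.18) and 4CL5 (1.16), ligases at the entry to the pathway, were higher, and CAD8C (-0.89) was lower.

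Of 19 photosynthesis genes 4 were called lower in F1 and 1 higher, and the median was -0.97. Both F1 arrays lay below both Jamaica arrays for 16 of the 19, against 24.4% of all probe sets. RCABP69, a chlorophyll-binding antenna protein, read 10074 and 15828 in F1, 29897 and 26795 in Jamaica and 12745 and 16945 in C bao (-1.16, SE 0.254, adjusted p 0.0278). PSAG, a photosystem I subunit, read 624 and 662 in F1, 1433 and 1299 in Jamaica and 656 and 628 in C bao (-1.07, SE 0.248, adjusted p 0.036), and a second, weak PSAG probe set differed by 0.11. In root the first PSAG probe set read 435 and 414 in F1 and 1021 and 673 in Jamaica (-0.94, uncalled, adjusted p 0.0604). GLO5, a glycolate oxidase of photorespiration, fell by 1.14 (adjusted p 0.0439), with 2 further probe sets at -1.04 and -1.16 uncalled. GLO3, of the same enzyme family, ran against the list at 2264 and 1067 in F1 and 129 and 291 in Jamaica (2.9, SE 0.364, adjusted p 0.00131). For RCABP69 and PSAG the F1 leaves lay close to C bao. Quantile scaling brought the list median to -0.47, with 2 genes lower. The lower calls numbered 12 without F1 leaf replicate 2, 1 without F1 leaf replicate 1, 0 without Jamaica leaf replicate 1 and 2 without Jamaica leaf replicate 2. Among 15 chlorophyll genes CHLP, a geranylgeranyl reductase, was the only call (-1.31, adjusted p 0.0425), and the median was 0.16.

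Markers of dividing cells separated the 2 hybrid arrays. The mean log2 level of the cell cycle and DNA replication list was 9.52 on replicate 1 and 7.81 on replicate 2. It was 7.75 and 8.13 in Jamaica and 9.31 and 9.45 in C bao. Replicate 1 thus stood with C bao and replicate 2 with Jamaica. Kinesins, motor proteins of the dividing cell, did the same, at 9.55 and 7.72 in F1, 6.95 and 7.73 in Jamaica and 9.48 and 9.43 in C bao. Of 57 cell cycle genes 1 was called, CYCA2-1, a cyclin at 1247 and 94.3 in F1, 3.3 and 42.3 in Jamaica and 1075 and 1246 in C bao (3.48, SE 0.879, adjusted p 0.0484). Of 32 kinesins KIN14F (2.23) and KIN7F (1.2) were called. Without F1 leaf replicate 2 the higher calls became 25 cell cycle genes and 23 kinesins, and without replicate 1 there were 0 and 1, with 3 cell cycle genes lower. The kinesins gave 0 higher calls without Jamaica leaf replicate 1 and 9 without Jamaica leaf replicate 2. The share of dividing cells in each leaf sample was not measured, and its part in the other results was not tested.

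**Figure D3:**
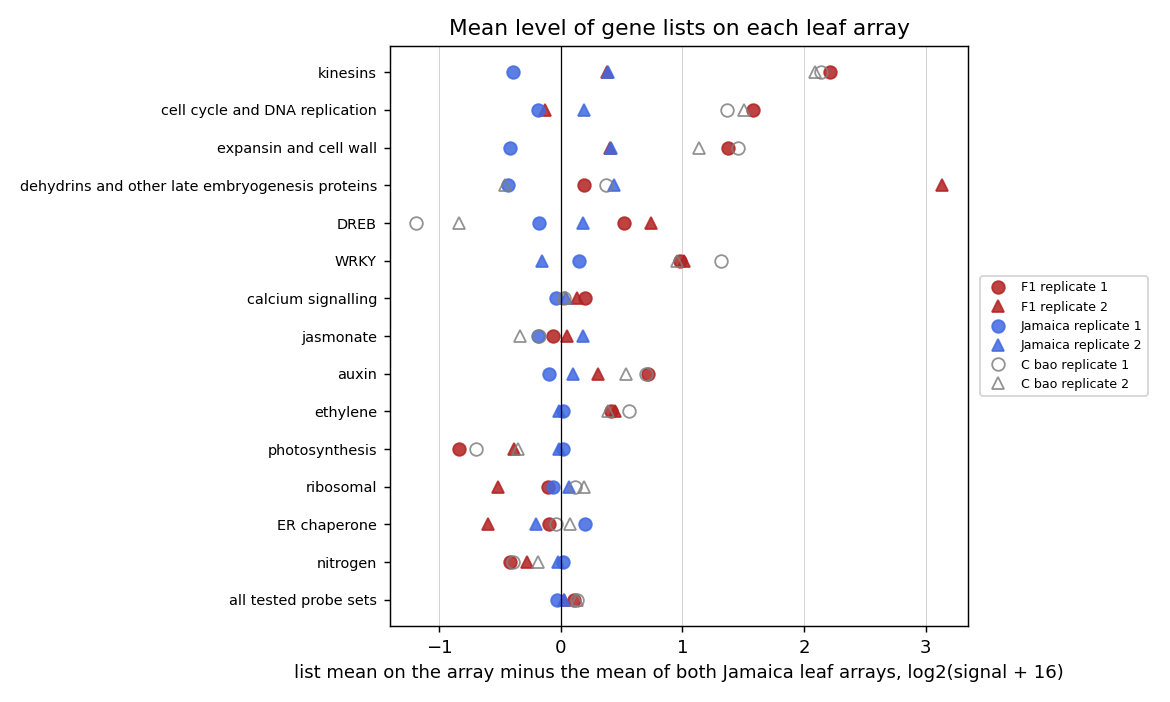
Mean of each gene list on each leaf array minus the mean of both Jamaica leaf arrays, in log2(signal + 16) (red F1, blue Jamaica, open grey C bao; circle for replicate 1, triangle for replicate 2). The kinesin and cell cycle lists place F1 replicate 1 with C bao and replicate 2 with Jamaica, the dehydrin list is far higher on F1 replicate 2, and the bottom line shows all tested probe sets.

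Cell wall and growth genes followed the same division in part. Of 67 expansin and cell wall genes 3 were higher and 0 lower, against 3.34% and 1.88% of all probe sets, with a median of 0.86, made of 1.35 on replicate 1 and 0.13 on replicate 2. Both F1 arrays were above both Jamaica arrays for 29 of them, against 20.6% of all probe sets. The higher calls became 26 without F1 leaf replicate 2, 0 without F1 leaf replicate 1, 0 without Jamaica leaf replicate 1 and 16 without Jamaica leaf replicate 2. CSLA5, a mannan synthase-like gene, read 1450 and 1626 in F1 and 414 and 485 in Jamaica (1.74, SE 0.388, adjusted p 0.03), and was steady between the hybrid arrays. BC1 (LOC4333114), a COBRA-like protein of secondary walls, read 534 and 400 in F1 against 73 and 196 in Jamaica (1.8, adjusted p 0.029). CESA6, a cellulose synthase subunit, read 2464 and 1400 against 417 and 1004 (1.49, adjusted p 0.0483). Sucrose synthases, which supply sugar to growing tissue, gave 3 of the 5 higher calls among 46 sugar genes. OsSUS1 read 18124 and 3253 in F1, 470 and 1810 in Jamaica and 20207 and 20452 in C bao (3.03, SE 0.693, adjusted p 0.0336). It was far higher on replicate 1, as were the dividing-cell lists. A second OsSUS1 probe set was 2.85 higher and called. The sugar list gave 8 higher calls without F1 leaf replicate 2, 2 without F1 leaf replicate 1 and 0 without Jamaica leaf replicate 1. OsSUS6 (1.83, with a second, weak probe set at 0.56 uncalled) and OsSUS5 (1.61) were also called, as was the trehalose phosphatase OsTPP9 (1.52).

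Auxin genes were called higher in 6 of 58 cases and lower in 1, against 3.34% and 1.88% of all probe sets, with a median of 0.36. The higher calls became 20 without F1 leaf replicate 2, 3 without F1 leaf replicate 1, 1 without Jamaica leaf replicate 1 and 11 without Jamaica leaf replicate 2. IAA14, a repressor of auxin responses, read 1215 and 171 in F1, 28.4 and 16.4 in Jamaica and 914 and 836 in C bao (3.66, SE 0.686, adjusted p 0.0137). ARF16, an auxin response factor, read 920 and 482 in F1 and 123 and 221 in Jamaica (1.91, adjusted p 0.0099), and IAA8 read 534 and 336 against 86 and 152 (1.75, adjusted p 0.0436). All 3 were higher on both hybrid arrays than in Jamaica, and of the 6 leaf arrays F1 replicate 1 was highest. Cytokinin genes split, with LOGL10, an activating enzyme, higher (1.51, adjusted p 0.00691) and CKX4, a degrading enzyme, lower (-1.83, adjusted p 0.0265), the only calls among 27. In the ethylene list of 12, ACS2, a synthesis enzyme, read 174 and 211 in F1 and 60 and 3.9 in Jamaica (2.42, adjusted p 0.0439). EIL1 (LOC4332697), a transcription factor of the ethylene response, was 1.28 higher (adjusted p 0.0319), and the receptor ERS2 was 1.27 lower (-1.27, SE 0.203, adjusted p 0.00581). GA20OX3, a gibberellin synthesis enzyme, was the only call among 15 gibberellin and brassinosteroid genes (-0.78, adjusted p 0.0313).

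Protein folding was represented by chaperones of the endoplasmic reticulum and heat shock proteins. Of 13 endoplasmic reticulum chaperones 3 were called lower, against 1.88% of all probe sets, and 0 higher, with a median of -0.29. Without Jamaica leaf replicate 1 the lower calls became 0. BIP1, the main chaperone of that compartment, read 4163 and 5803 in F1, 18326 and 10198 in Jamaica and 5311 and 7400 in C bao (-1.47, SE 0.294, adjusted p 0.0188). OsPDIL1-1 (-0.76) and OsPDIL2-2 (-0.76), protein disulphide isomerase-like proteins, were also lower. Among 43 heat shock genes 1 was higher and 3 lower. HSP81-1, of the HSP90 family, read 3277 and 4044 in F1, 9555 and 8399 in Jamaica and 3495 and 4035 in C bao (-1.3, SE 0.157, adjusted p 0.00105), while a weaker probe set at -0.56 was uncalled. Ribosomal genes had a median of -0.38 and both F1 arrays below both Jamaica arrays for 14 of 25, against 24.4% of all probe sets. That median moved to -0.04 under quantile scaling, and rps20 was the only call (-0.77, adjusted p 0.0156), with its other probe sets at -0.88 (called), -0.64 and -0.2. Without F1 leaf replicate 1 the lower ribosomal calls became 9.

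Nutrient genes are read against the 5.22% of all probe sets called. Of 22 nitrogen genes 3 were lower and 0 higher, namely AMT3-3, AMT2-1 (-0.82) and DUR3, a urea transporter at 286 and 381 in F1 and 2012 and 814 in Jamaica (-1.91, adjusted p 0.0474). Without F1 leaf replicate 2 the lower nitrogen calls became 6, and without Jamaica leaf replicate 1 they became 1. Of 55 iron, copper and zinc genes 4 were higher and 2 lower, with 9 higher without F1 leaf replicate 2 and 1 higher without Jamaica leaf replicate 1. NAS2, which makes the metal carrier nicotianamine, read 8788 and 805 in F1, 185 and 223 in Jamaica and 1847 and 1267 in C bao (3.61, SE 0.767, adjusted p 0.0242). Replicate 1 was far above all other leaf arrays for NAS2. COPT1, a copper transporter, was steadier at 1963 and 1721 in F1 and 570 and 699 in Jamaica (1.52, adjusted p 0.0146), and OsVIT1.2, an iron transporter of the vacuole, was 1.55 higher (adjusted p 0.0391). In the phosphate list of 19, OsPHO1;2 was higher on 1 of 3 probe sets (1.73, adjusted p 0.0248). The others, at 0.08 and 0.46, were not called. OsPht1;8 was lower (-1.05, adjusted p 0.0116), with further probe sets at -1.0 (called) and -2.06 (adjusted p 0.0547). Of 22 oxidative stress genes APX2, an ascorbate peroxidase, was the only call (-0.85, adjusted p 0.00668), and GSTZ5 the only call of 6 glutathione transferases (-0.8, adjusted p 0.0402). A further APX2 probe set fell by 1 log2 unit and was called (difference -1.0, adjusted p 0.00221). Weaker APX2 probe sets, at -0.61 and -0.5, were not called (adjusted p 0.722 and 0.578).

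Genes of the response to abscisic acid, the hormone of water stress, divided the hybrid arrays the other way. None of the 10 dehydrins and other late embryogenesis proteins, which protect drying cells, was called, but 5 were called higher without F1 leaf replicate 1. Their median was 0.19 on replicate 1 and 2.95 on replicate 2, and their mean level 8.27 and 11.21 against 7.64 and 8.51 in Jamaica and 8.45 and 7.62 in C bao. Among 21 abscisic acid signalling genes 0 were higher and 2 lower. These were OsSAPK6, a kinase of the pathway (1541 and 2310 in F1, 5223 and 4398 in Jamaica, -1.34, adjusted p 0.0153), and OsPP2C09, a phosphatase (-1.44, adjusted p 0.034).

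Genes that moved on only 1 hybrid array were counted as those with that array at least 4-fold beyond both Jamaica arrays and the other within 2-fold of the Jamaica mean. By that count replicate 1 was alone above for 789 probe sets (1.84%) and alone below for 124 (0.289%). Replicate 2 was alone above for 92 (0.214%) and alone below for 60 (0.14%). These values chose the genes and carry no test. On replicate 1 alone, CYCB2 (LOC4342121), a mitotic cyclin, read 1531 against 14.7 on replicate 2, with 5.1 and 50 in Jamaica and 1486 and 1987 in C bao. KCS20, of the family that builds very-long-chain fatty acids, read 1519 against 3.5, with 25.3 and 8.2 in Jamaica and 770 and 1126 in C bao. BCL1 and BZIP06 had the same form, so replicate 1 carried the C bao level and replicate 2 the Jamaica level for all 4.

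Replicate 1 was alone below for 4 named genes. EGY3 read 55.8 on replicate 1 against 854 on replicate 2, with 703 and 858 in Jamaica, and the tonoplast water channel TIP1-2 read 80.8 against 645, with 514 and 706 in Jamaica. HSP18.1 read 13.6 against 268, with 237 and 155 in Jamaica, while a second HSP18.1 probe set read 143 against 303, with 182 and 168 in Jamaica. The flowering regulator DTH8 read 66.5 against 225, with 510 and 338 in Jamaica, so both hybrid arrays lay below Jamaica and replicate 1 much further. Replicate 2 was alone above for LEA19, a late embryogenesis protein, at 13055 against 50.4 on replicate 1, with 78.8 and 86.8 in Jamaica and 286 and 19.6 in C bao. RAB16B, a dehydrin, read 5799 against 104, and RAB21, another, 25308 against 1047, with 204 and 1658 in Jamaica and 1545 and 320 in C bao. A second RAB21 probe set read 12250 against 806. RAB16B, RAB16C and RAB21 are closely related genes, and cross-reaction between their probe sets was not tested. ELA3 read 2854 against 296. For these 4 genes F1 replicate 2 stood far above the 5 other leaf arrays, on which RAB21 still reached 1658.

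Replicate 2 was alone below for 3 named genes. NAR2.2, a partner of nitrate transporters, read 6 against 306 on replicate 1, with 285 and 287 in Jamaica. RAC3, a small GTPase, read 102 against 1143, although 2 other RAC3 probe sets did not separate the groups. RPT1A, an ATPase of the proteasome, read 217 against 616, with 1219 and 1226 in Jamaica, and here the limma difference of -1.69 was called (adjusted p 0.0237). Both of its hybrid values lay below Jamaica.

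**Figure D4:**
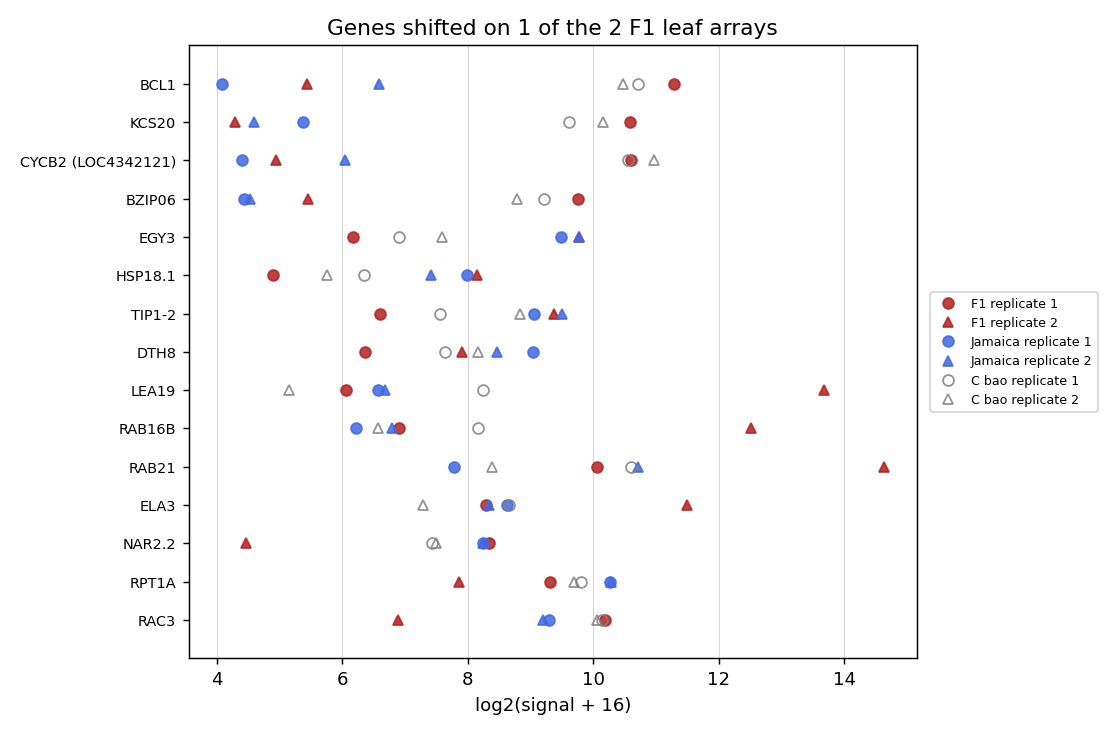
Level in log2(signal + 16) of the named genes that stood apart on 1 hybrid leaf array, on each of the 6 leaf arrays (red F1, blue Jamaica, open grey C bao; circle for replicate 1, triangle for replicate 2). The 4 top genes place F1 replicate 1 with C bao and F1 replicate 2 with Jamaica, and LEA19, RAB16B, RAB21 and ELA3 are highest on F1 replicate 2.

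The difference between F1 and Jamaica was set against the same difference in root, where the plants were 7 days old. It differed between the tissues for 829 probe sets (1.93%), 350 of them with the higher value in leaf (0.814%) and 479 with the higher value in root (1.11%). Centring each array on its median turned that split to 645 and 335. Without F1 leaf replicate 2 the number was 3838, without Jamaica leaf replicate 2 it was 1326, and without a C bao root array it was 520. Without a Jamaica root array it was 256 or 304, and without an F1 root array 182 or 185.

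NSHB2, a non-symbiotic haemoglobin, the class of oxygen-binding protein that plants induce under low oxygen, read 1466 and 1116 in F1 leaf, 265 and 167 in Jamaica leaf and 456 and 624 in C bao leaf. It was 2.51 above Jamaica in leaf (SE 0.254, adjusted p 0.000305) and 4.7 below in root (difference -4.7, adjusted p 4.1e-06), a leaf minus root difference of 7.21 (adjusted p 3.86e-05). It was the only call among 7 hypoxia and haemoglobin genes in leaf. The list median against the Jamaica mean was 0.93 on F1 replicate 1 and 0.0 on replicate 2. KSL7 was 4.81 above Jamaica in leaf and below it in root (-2.53, adjusted p 0.0433), with a difference of 7.34 between tissues (adjusted p 0.00374). LAC24, 5.22 above in leaf, was not called in root (-1.87, adjusted p 0.164), and the tissues differed by 7.09 (adjusted p 0.00556). CPDK2, a calcium-dependent protein kinase, read 200 and 202 in F1 leaf and 70.8 and 59.7 in Jamaica leaf, an uncalled 1.42 (adjusted p 0.111), and was far lower in F1 root (-6.0, adjusted p 3.65e-05). Of the 14 widest leaf rises among informatively named genes, some were also called higher in root. These were MADS56 (6.29), Cht2 (5.57), OsPRDA1 (4.61), OsC3H2 (4.12), AT15 (3.56) and OsPP2C12 (2.24), and their tissue differences were not called. KSL7 was called lower in root, and the rest of the 14 were not called there.

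Of the 10 dehydrins and other late embryogenesis proteins 4 had a called tissue difference, against 1.93% of all probe sets. LEA19 (-1.81), RAB16B (-4.74) and RAB21 (-5.85) did not (adjusted p 0.77, 0.231 and 0.204). PM1 differed by -0.36 in leaf (adjusted p 0.703) and by 6.32 in root (adjusted p 2.42e-05), and EM by 0.05 in leaf and 5.84 in root. RAB16C differed by 0.97 in leaf, where its F1 values were 122 and 2232, and by 8.02 in root. Agglutinin, a lectin, was at most 24.1 on the F1 and Jamaica leaf arrays and 6.14 higher in F1 root. The tissue difference was called for each, at -6.68 for PM1, -5.79 for EM, -7.05 for RAB16C and -6.13 for Agglutinin. The RAB16C call was lost at a pseudocount of 1, without a trend, under robust moderation and at a threshold of 0.01. It was also lost without Jamaica leaf replicate 1, either C bao leaf array, either F1 root array or either Jamaica root array. PM1 and EM kept theirs in all of these settings, and Agglutinin lost its call only at a pseudocount of 1. CBF3 was raised in both tissues, by 1.5 in leaf and 5.05 in root, and the difference of -3.55 between them was called (adjusted p 0.00678). The DREB1B difference between tissues, at -1.95, was not called (adjusted p 0.0807).

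**Figure D5:**
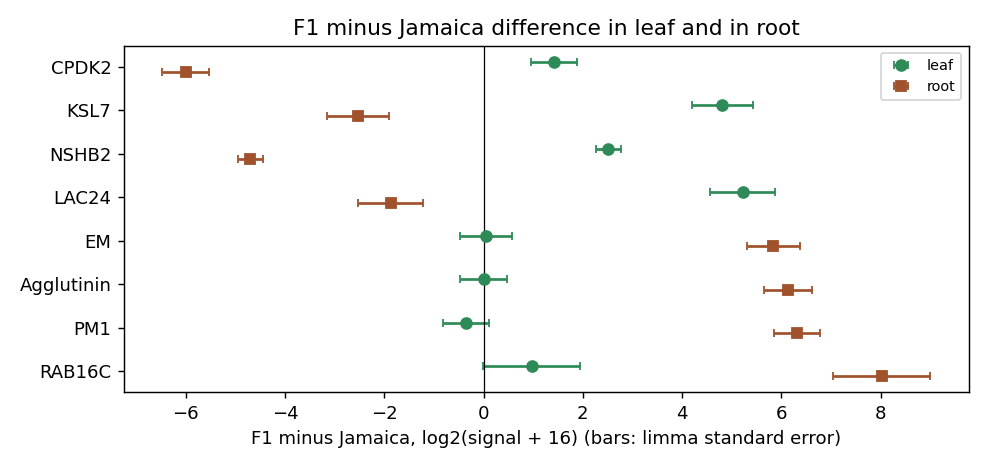
F1 minus Jamaica difference in log2(signal + 16) in leaf (green circles) and root (brown squares) for the 8 informatively named genes with the largest called tissue differences, 4 each way, with bars for the limma standard error. NSHB2, KSL7, LAC24 and CPDK2 lie higher in leaf, and EM, Agglutinin, PM1 and RAB16C lie near 0 or 1 in leaf and 5.84 to 8.02 in root.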

How the data were processed

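The deposited matrix held 1 intensity per probe set and array on a linear scale, made by the authors with MAS5 per the submitters' processing notes. The 2% trimmed means of the deposited arrays were 500.06 to 500.08, so they had been scaled. RNA was isolated with RNeasy and labelled in 1 cycle per the labels' protocols. Detection calls and hybridisation batches are not given in the sources used here.

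The 123 control sets were left out. The 57258 others were scaled to a trimmed mean of 500, taken as log2(signal + 16) and kept where a group mean exceeded 5.59 (a signal of 32.2), which left 42974 (75.05%). A model of 6 group means was fitted with limma 3.58.1 in R 4.3.3, with trend (6 residual and 4.581 prior degrees of freedom), and p-values were adjusted by Benjamini-Hochberg within each comparison at 0.05. The number of arrays limits the precision. Tables were made with Python 3.11.15.

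In the probe annotation 22436 probe sets had 1 gene, 95 several and 34727 none. Names were taken from RefSeq symbols and synonyms, and 2457 of 17905 genes had an informative one. The members, the 35 lists and the naming rule were chosen with earlier results of these data known. The rule named the 14 rises and 14 falls of the largest gap (the smallest difference between an F1 and a Jamaica array), up to 4 called genes per list, 4 genes per kind of single-array shift, 4 tissue differences each way and 3 identifiers each way. CBF1, DREB1E and second probe sets are given to complete a list or gene.

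On simulated arrays with 100 probe sets changed by 1 and 100 by 2 log2 units in F1 leaf, the fit recovered 7% and 27%, with 1 false call of 35. The simulation gave all arrays the same spread for a probe set, whereas the real F1 and Jamaica leaf pairs spread more. It therefore cannot give the rate of false calls in this comparison. Shared replicate numbers are not said to mark a batch. Alternatives were other scalings, pseudocounts, filters, moderation, array weights, replicate blocks, fits to the leaf arrays, stricter thresholds and each array left out. Sequences and positions were not used here.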

Additional observations from a re-analysis of the deposited data

Results flagged for a closer look

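The difference between F1 and Jamaica was tested for a difference between leaf and root, and 829 probe sets passed the limma test of that difference. Among the genes named above the leaf value exceeded the root value by 7.43 for CPDK2, 7.34 for KSL7, 7.21 for NSHB2, 7.09 for LAC24, 6.41 for BURP17 and 4.58 for OsPP2C45 on the log2 scale. It did so by 3.61 for GLO3, 3.54 for OPR5, 3.25 for CH6, 3.2 for ASMT, 2.95 for MT1B and 2.85 for COPT1. Smaller excesses of leaf over root were 2.51 for OsPHO1;2, 2.25 for OsSUS5, 1.74 for LOX5 and 1.66 for LOGL10. By identifier they were 5.58 for LOC4346790 and 3.09 for LOC4337003.

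The leaf value lay under the root value, as leaf minus root, by -7.05 for RAB16C, -6.68 for PM1, -6.13 for Agglutinin, -5.79 for EM and -5.32 for the peroxidase. The differences were -4.13 for JAZ8, -3.55 for CBF3, -3.19 for AMT3-3, -3.02 for BC1L9, -2.96 for CKX4 and -2.94 for BURP2. They were -1.97 for the chitinase, -1.62 for GA20OX3, -1.4 for OsPDIL1-1 and -1.14 for HSP81-1. By identifier they were -6.12 for LOC4328841, -5.09 for LOC4327401 and -4.5 for LOC4333923. The tissues also differed in age, so tissue and age cannot be told apart here.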

How the results depend on the processing

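Against the 2242 calls between F1 and Jamaica leaves, 1398 were made without a trend, 777 with array weights, 388 with 6 leaf arrays, 55 with 4 arrays and 715 at a threshold of 0.01. Leaving out single arrays gave 954 to 6038. The replicate numbers correlated at -0.125 between the F1 and Jamaica leaf pairs. A replicate block gave 1755 calls, 599 for the tissue difference and 414 against C bao, and exchanging the numbers of 1 pair, an alternative added after the data had been seen, gave 2534. The tissue difference, 829 calls, went to 524 without a trend and ranged from 182 to 3838 with single arrays left out. Against C bao, 495 became 118 with leaf arrays alone and 200 to 4441 with single arrays left out. The 2275 probe sets at least 2-fold apart on both F1 arrays became 3703 at a pseudocount of 1, 1012 at 64, 1507 under the 60th percentile filter and 4574 to 7660 with 1 of the 4 arrays left out, where fewer arrays must agree. Of the 28 informatively named genes with the widest gap, 18 were called with 6 leaf arrays, 8 with 4 arrays and 21 to 28 with single arrays left out. Over 102 named genes and all alternatives, 692 of 2642 differences fell short of the threshold and 1950 kept their call. The sign turned for 0, which is little of a test, since many alternatives leave the estimate itself unchanged. For genes called against Jamaica, both F1 arrays lay on 1 side of both Jamaica arrays. Leaving out 1 of these arrays could therefore not turn their sign. Of 97 genes called against Jamaica, 40 kept the call whichever array was left out.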
